A study of Homo sapiens with 6 samples.

Results

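The epidermal growth factor (EGF) family comprises peptide ligands and the ERBB receptor tyrosine kinases that they activate. Its members were chosen by name, with earlier results of these data known, and were the receptors EGFR, ERBB2, ERBB3 and ERBB4 and the ligands AREG, EREG, HBEGF, TGFA, BTC and NRG1. Probe sets that the array annotation ties to a single gene measured 9 of these 10 genes, with 38 of 54675 probe sets. AREG had no such probe set in the annotation used and was not analysed here. The samples were MDA-MB-231 cells, an established human breast cancer line of the triple-negative kind. In 1 group the cells had received an siRNA that targets SDC1 (a small interfering RNA, which leads to loss of the matching transcript), and in the other a negative control siRNA. Each group had 3 replicates that the series design calls independent, and each replicate was read on 1 Affymetrix array. SDC1 encodes syndecan-1, a cell surface proteoglycan with heparan sulfate chains. All cells had been transfected, and no untransfected cells were analysed here. The sources used here give no siRNA sequence, dose or time after transfection.

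EGF-family ligands are made as membrane-anchored precursors, and metalloproteases of the ADAM family cut them loose. EGFR binds EREG, HBEGF, TGFA and BTC, whereas NRG1 binds ERBB3 and ERBB4, and ERBB2, which has no known soluble ligand, joins the others as a dimer partner. HBEGF and NRG1 also bind heparan sulfate, the sugar that syndecans carry. Active receptors signal through the RAS-MAPK and PI3K-AKT cascades, and triple-negative breast cancers are known for high EGFR.

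The deposited values are log2 expression relative to each probe set's median over the 6 arrays, so they show differences between arrays but not levels. Differences are in log2, SDC1 siRNA minus control siRNA, from limma fits over all probe sets or over all genes. The standard error (SE) is that of the fit, n = 3 per group, and p is adjusted over all features tested, with 0.05 as the threshold. The gene value of SDC1 itself was at -1.14, -1.16 and -1.43 after SDC1 siRNA, against 1.13, 1.32 and 1.09 after control siRNA, which left 18.7% of the control transcript (difference -2.42, SE 0.097, adjusted p = 2.14e-06). Across all genes 28.1% passed the threshold, 13% higher and 15.1% lower, and the groups of arrays did not overlap for 41.7%. By the level of spike-in RNA controls the arrays fell into 2 sets, called batches here, although the labels name no batch. The first held SDC1 siRNA replicates 1 and 2 with control replicate 1, and the second the remaining arrays. Differences within each batch are given beside the pooled ones. The part of these batches in the results was not tested beyond this. The numeric step of the values sorts probe sets into 3 brightness classes, the brightest at a log2 level between 8 and 16. Fewer cells of a type and less RNA per cell cannot be told apart in these samples.

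Of the 9 measured genes 6 passed the threshold (66.7%, beside 28.1% of all genes), 3 lower and 3 higher after SDC1 siRNA, and their median log2 fold change was -0.05 against 0.00452 over all genes tested. EREG, HBEGF and EGFR were lower. NRG1, ERBB3 and TGFA were higher. ERBB2, BTC and ERBB4 did not pass. The groups of arrays did not overlap for 8 of the 9 genes, beside 41.7% of all genes. At the level of single probe sets 10 of 38 passed, 5 in each direction, which is 26.3% against 19.8% of all probe sets tested (9.7% higher and 10.1% lower). The groups of arrays did not overlap for 17 of the 38, or 44.7% against 35.7% of all probe sets. By brightness the members past the threshold were 6 of 12 in the brightest class, 4 of 20 in the middle and 0 of 6 in the dimmest. Of all probe sets in these classes 33.5%, 17.6% and 3.69% passed. Of the 12, ERBB2 216836_s_at, NRG1 208230_s_at and 208232_x_at and BTC 207326_at were placed lower when all 6 arrays were read. None of these passed. All 6 genes past the threshold had the same sign within both spike-in batches. This had to be so, since their groups of arrays did not overlap, and it says nothing on the part of the batches.

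**Figure D1:**
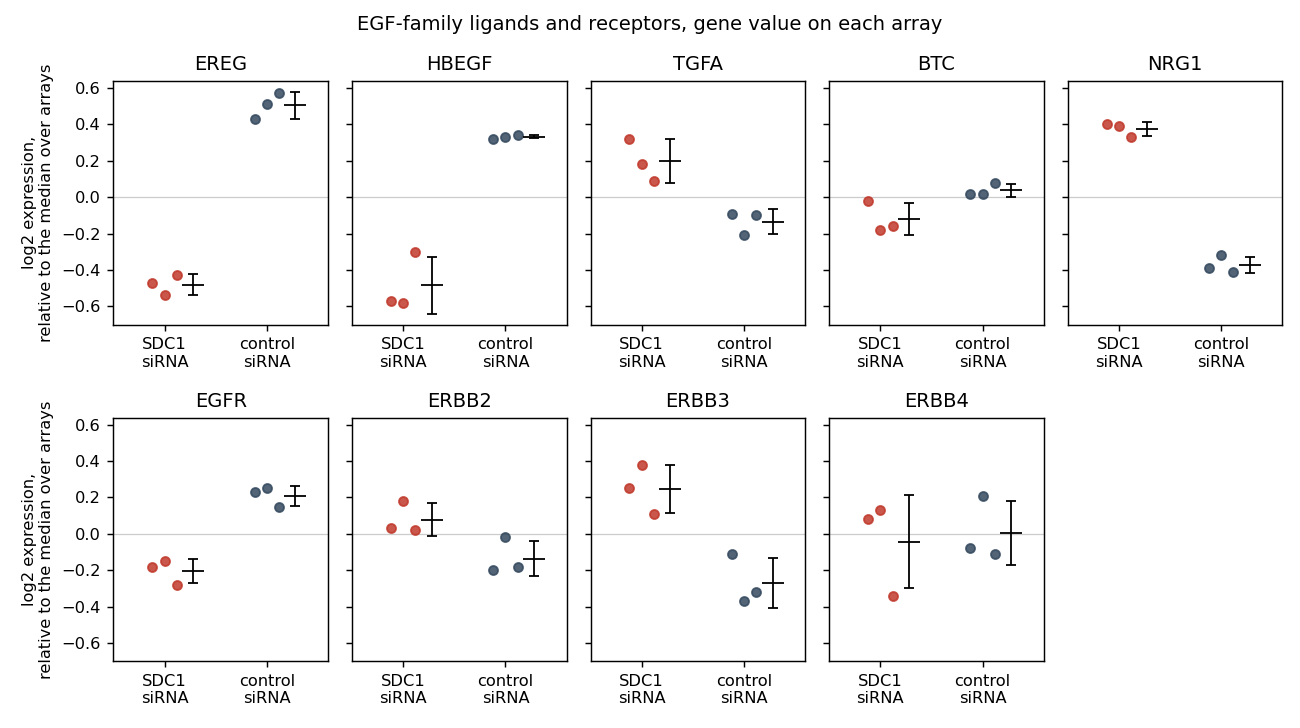
Log2 expression relative to the median over arrays (y axis) of the gene value of 9 EGF-family genes, 1 point per array, SDC1 siRNA left and control siRNA right, with the mean and SD of each group (n = 3). EREG, HBEGF, BTC and EGFR lie lower on every SDC1 siRNA array than on any control array, TGFA, NRG1, ERBB2 and ERBB3 lie higher, and the groups overlap for ERBB4.

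Among the ligands of EGFR, epiregulin (EREG) had the largest fall, alike in every SDC1 siRNA replicate. Its gene value, which rests on 1 bright probe set, was -0.47, -0.54 and -0.43 after SDC1 siRNA, against 0.43, 0.51 and 0.57 after control siRNA. The groups were far apart, with an SD of 0.058 and 0.073 within them. EREG fell by 0.99 in log2 (SE 0.065, adjusted p = 1.91e-05), to 50.5% of control, with -0.94 and -0.97 within the 2 batches. The second EREG probe set, in the middle class, did not follow. It was at 0.13, -0.01 and 0.01 after SDC1 siRNA, against 0.14, -0.32 and -0.29 after control siRNA, a difference of 0.20 (SE 0.12, adjusted p = 0.332). Within the 2 batches the difference was -0.08 and 0.31. Control replicate 1, the only control array of its batch, alone lay high in its group for this probe set. Without that array the probe set passed in the opposite direction to the bright one, at 0.35 (adjusted p = 0.0268). That fit has no control array in the first batch, so it cannot part the siRNA from the batch there. The 2 EREG probe sets differed in their response by 1.18 (SE 0.15, adjusted p = 0.00105). The EREG gene value was -0.39 with both probe sets averaged (adjusted p = 0.00269).

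HBEGF, the heparin-binding ligand of EGFR and ERBB4, also fell. Its gene value averages 2 bright probe sets and stood at -0.57, -0.58 and -0.30 after SDC1 siRNA, against 0.32, 0.33 and 0.34 after control siRNA. Control arrays were nearly equal, while SDC1 siRNA replicate 3 lay closer to them than the other SDC1 siRNA arrays did. The difference was -0.82 (SE 0.082, adjusted p = 0.000158), which left 56.8% of the control transcript. Within the batches it was -0.90 and, in the batch that holds SDC1 siRNA replicate 3, -0.64. The bright probe sets gave -0.83 (203821_at) and -0.81 (38037_at), and the other pair, in the middle class, -0.10 and -0.05 (adjusted p = 0.682 and 0.808). With all 4 averaged HBEGF was at -0.45 (adjusted p = 0.00185).

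EREG and HBEGF, with EGFR, were the members that fell, and the sequences around their transcription starts are shown so that their promoter types can be compared. The windows are RefSeq's, from 250 bases before to 50 bases after the gene start on GRCh38.p14. They lie at chr4:74364895-74365194 on the plus strand for EREG, chr5:140346554-140346853 on the minus strand for HBEGF and chr7:55018767-55019066 on the plus strand for EGFR, the upstream of 2 EGFR windows. Capitals mark matches on either strand to the TATA box, spelled TATAAA. They also mark the GC box, a site for SP1-type factors, spelled GGGCGG. Also searched were the AP-1 site, bound by JUN and FOS proteins and spelled TGANTCA, the cyclic AMP response element TGACGTCA and the NF-kB site GGGNNTTCC.
EREG: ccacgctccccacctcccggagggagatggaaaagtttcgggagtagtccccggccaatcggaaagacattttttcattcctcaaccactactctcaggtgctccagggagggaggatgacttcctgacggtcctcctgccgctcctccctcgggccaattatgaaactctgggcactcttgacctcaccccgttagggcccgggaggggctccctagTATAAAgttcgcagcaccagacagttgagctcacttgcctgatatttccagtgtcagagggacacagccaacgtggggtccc
HBEGF: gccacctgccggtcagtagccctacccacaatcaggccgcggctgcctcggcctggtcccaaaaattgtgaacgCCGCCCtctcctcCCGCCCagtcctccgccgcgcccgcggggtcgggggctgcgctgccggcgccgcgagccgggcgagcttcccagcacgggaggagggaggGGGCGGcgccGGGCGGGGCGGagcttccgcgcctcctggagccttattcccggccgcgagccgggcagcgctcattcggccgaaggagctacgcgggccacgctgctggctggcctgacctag
EGFR: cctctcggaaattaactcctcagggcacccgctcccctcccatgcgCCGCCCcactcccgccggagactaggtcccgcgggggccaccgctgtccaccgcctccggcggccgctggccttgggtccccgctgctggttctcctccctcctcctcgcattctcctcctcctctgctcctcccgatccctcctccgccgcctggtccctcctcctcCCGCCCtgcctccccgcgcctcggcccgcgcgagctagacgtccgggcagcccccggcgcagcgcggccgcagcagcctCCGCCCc
The EREG window held 1 TATA box, 32 bases before the start, and no GC box. The HBEGF window held 5 GC boxes, 2 of which overlap, and the EGFR window 3, and neither held a TATA box. No window held any of the other 3 motifs as spelled here. Among all 35116 windows of this length, 11.5% held the TATA box, 45% the GC box, 7.71% the AP-1 site, 1.85% the cyclic AMP response element and 6.58% the NF-kB site. The GC content was 57.7% for EREG, 75% for HBEGF and 75.3% for EGFR, beside a median of 58.7% over all windows. A match is a description of these letters, and factor binding was not measured.

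TGFA, transforming growth factor alpha, moved the other way from EREG and HBEGF. Its gene value, from 1 bright probe set, was 0.32, 0.18 and 0.09 after SDC1 siRNA, against -0.09, -0.21 and -0.10 after control siRNA, and the groups did not overlap. TGFA rose by 0.33 (SE 0.077, adjusted p = 0.0116), 1.26-fold, with 0.34 and 0.24 within the batches. The same probe set in the fit over probe sets had an adjusted p of 0.0243, and it missed the threshold without control replicate 2 (0.29, adjusted p = 0.0795) or 3 (0.35, adjusted p = 0.0535), or without SDC1 siRNA replicate 1 (0.27, adjusted p = 0.0889) or 2 (0.34, adjusted p = 0.0663). The other TGFA probe sets gave 0.19 and 0.23 (adjusted p = 0.172 and 0.0855). They lean the same way as the bright one without passing.

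BTC, betacellulin, binds EGFR and ERBB4, and its call depended on the probe set read. The gene value rests on 1 probe set, which counts as bright on the 3 arrays at or above its median but as dimmest when all 6 are read. Values this close together cannot lie in both classes, so the brightness of this probe set is uncertain. The gene value was at -0.02, -0.18 and -0.16 after SDC1 siRNA, against 0.02, 0.02 and 0.08 after control siRNA, a difference of -0.16 (SE 0.066, adjusted p = 0.118). The other BTC probe set, 241412_at of the middle class, stood at -0.15, -0.22 and -0.07 after SDC1 siRNA, against 0.26, 0.22 and 0.07 after control siRNA. It passed at -0.33 (SE 0.081, adjusted p = 0.0210). That call was lost without control replicate 1 (-0.29, adjusted p = 0.0646) or 2 (-0.31, adjusted p = 0.0646) and without SDC1 siRNA replicate 1 (-0.33, adjusted p = 0.0652) or 2 (-0.29, adjusted p = 0.0807). The fit without control replicate 1 has no control array in the first batch. BTC passed as a gene at -0.24 (adjusted p = 0.0148) with both probe sets averaged and at -0.33 (adjusted p = 0.00883) with the brightness class read from all 6 arrays. The 2 probe sets did not differ from each other beyond the threshold (difference 0.17, SE 0.10, adjusted p = 0.323).

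NRG1, neuregulin 1, the ligand of ERBB3 and ERBB4 whose gene makes many transcript forms, had the largest single rise among the 38 probe sets. Probe set 206343_s_at was at 0.87, 0.77 and 0.89 after SDC1 siRNA, against -0.77, -0.83 and -1.0 after control siRNA. Its arrays formed 2 tight and distant groups. The difference was 1.71 (SE 0.083, adjusted p = 8.88e-06), 3.26-fold, with 1.59 and 1.80 within the batches. A second probe set, 208241_at of the middle class, stood at 0.51, 0.22 and 0.25 after SDC1 siRNA, against -0.22, -0.64 and -0.33 after control siRNA. It rose by 0.72 (SE 0.12, adjusted p = 0.00372), 1.65-fold, with 0.59 and 0.73 within the batches, and its spread was wider in both groups.

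The other 4 NRG1 probe sets did not pass. 208230_s_at was at -0.07, 0.01 and -0.23 after SDC1 siRNA, against -0.01, 0.18 and 0.18 after control siRNA, a difference of -0.21 (SE 0.092, adjusted p = 0.159). 206237_s_at was at 0.03, -0.02 and -0.13 after SDC1 siRNA, against 0.02, 0.03 and -0.05 after control siRNA, or -0.04 (SE 0.074, adjusted p = 0.781). 208232_x_at was at 0.05, -0.04 and -0.03 after SDC1 siRNA, against 0.01, 0.09 and -0.01 after control siRNA, again -0.04 (SE 0.071, adjusted p = 0.770). The groups overlap for all 3. 208231_at, in the dimmest class, ran from -0.15 to 0.00 after SDC1 siRNA and from 0.00 to 0.28 after control siRNA, or -0.15 (SE 0.094, adjusted p = 0.332). All 6 NRG1 probe sets differed from the mean of the gene's other probe sets, 206343_s_at by 1.65 (SE 0.10, adjusted p = 5.43e-05) and 208241_at by 0.47 (SE 0.13, adjusted p = 0.0455) upwards. The remaining ones differed by -0.44 to -0.65 (adjusted p from 0.00403 to 0.0108). For these, the mean of the others includes 206343_s_at and 208241_at. Their calls therefore follow from those rises and are no separate result. The array annotation gives each NRG1 probe set a source sequence. Those of 206343_s_at and 208241_at differ from each other and from those of the other 4. It does not list every NRG1 transcript that a probe set reads, and this was not tested.

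The size of the NRG1 gene value varied with the probe sets that enter it. 208230_s_at counts as bright on the 3 arrays at or above its median and as middle class when all 6 are read. As the mean of 206343_s_at and 208230_s_at it was 0.40, 0.39 and 0.33 after SDC1 siRNA, against -0.39, -0.32 and -0.41 after control siRNA, a rise of 0.75 (SE 0.058, adjusted p = 4.44e-05). With the brightness class from all 6 arrays only 206343_s_at remained and the value was 1.71. With the 5 probe sets other than the cross-hybridising 208232_x_at averaged it was 0.41 (adjusted p = 0.000801). The direction was upward in each case.

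**Figure D2:**
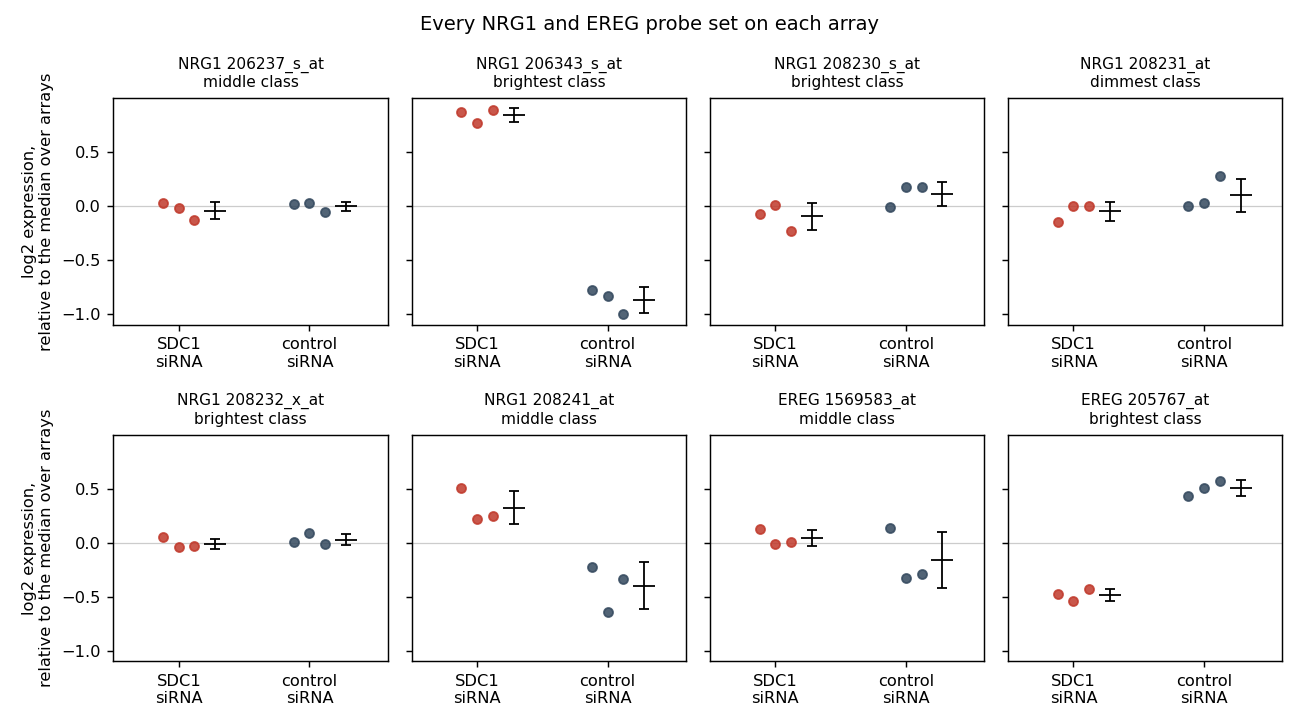
Log2 expression relative to the median over arrays (y axis) of every NRG1 and EREG probe set, 1 point per array, SDC1 siRNA left and control siRNA right, with the mean and SD of each group (n = 3). NRG1 206343_s_at and 208241_at lie above zero on all SDC1 siRNA arrays and below it on all control arrays, EREG 205767_at shows the reverse, and the remaining probe sets have no gap of this kind.

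Of the receptors, EGFR was lower after SDC1 siRNA. Its gene value, the mean of 3 bright probe sets, was -0.18, -0.15 and -0.28 after SDC1 siRNA, against 0.23, 0.25 and 0.15 after control siRNA. EGFR fell by 0.41 (SE 0.064, adjusted p = 0.00158), to 75.2% of control, with -0.39 and -0.48 within the batches. Its 9 probe sets were all below 0, but 1 of them, 201984_s_at, passed the threshold. That probe set was at -0.43, -0.35 and -0.35 after SDC1 siRNA, against 0.46, 0.49 and 0.35 after control siRNA, a difference of -0.81 (SE 0.074, adjusted p = 0.000141). It differed from the mean of the other EGFR probe sets by -0.66 (SE 0.087, adjusted p = 0.00138). The other 8 ran from -0.22 to -0.09 (adjusted p from 0.0619 to 0.766), and the 2 bright ones among them, 224999_at and 201983_s_at, gave -0.20 and -0.22. With all averaged but the cross-hybridising _x_at ones EGFR was at -0.26 (adjusted p = 0.00909).

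ERBB3, which has little kinase activity of its own and relays NRG1 signals through its partners, was higher. Its gene value averages 3 probe sets of the middle class and was 0.25, 0.38 and 0.11 after SDC1 siRNA, against -0.11, -0.37 and -0.32 after control siRNA. The replicates spread more than for EREG or NRG1, with an SD of 0.13 and 0.14, but the groups did not overlap. ERBB3 rose by 0.52 (SE 0.093, adjusted p = 0.00339), 1.43-fold, with 0.43 and 0.46 within the batches. Probe set 226213_at rose by 0.83 (SE 0.16, adjusted p = 0.00566) and 202454_s_at by 0.59 (SE 0.12, adjusted p = 0.00788). The other 3 ran from 0.02 to 0.22 (adjusted p from 0.172 to 0.917), and 2 of these are in the dimmest class.

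ERBB2 and ERBB4 did not pass. ERBB2 was at 0.03, 0.18 and 0.02 after SDC1 siRNA, against -0.20, -0.02 and -0.18 after control siRNA, a difference of 0.21 (SE 0.076, adjusted p = 0.0692). The groups did not overlap, and ERBB2 passed with a robust prior (adjusted p = 0.0464), with a replicate block (adjusted p = 0.0365) and, at 0.27, without control replicate 2 (adjusted p = 0.0415). Its 3 probe sets ran from 0.13 to 0.27. ERBB4 was at 0.08, 0.13 and -0.34 after SDC1 siRNA, against -0.08, 0.21 and -0.11 after control siRNA, or -0.05 (SE 0.13, adjusted p = 0.834). It was at 0.19 in the first batch and -0.39 in the second. SDC1 siRNA replicate 3 was the lowest ERBB4 array, and 3 of the 4 ERBB4 probe sets are in the dimmest class.

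**Figure D3:**
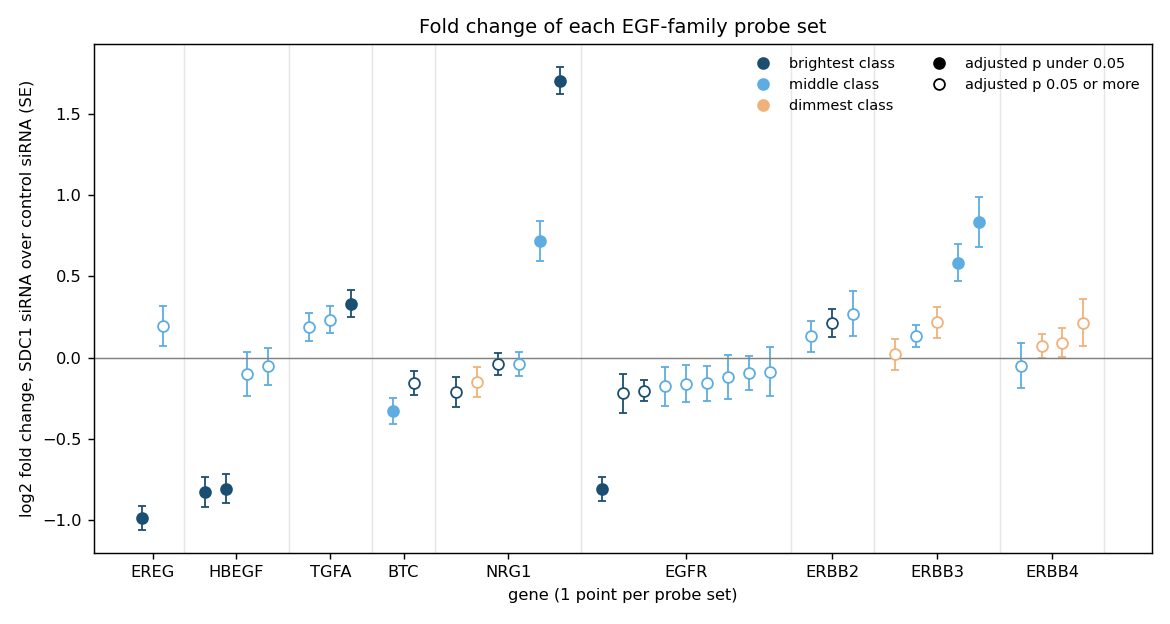
Log2 fold change, SDC1 siRNA over control siRNA (y axis, with SE), of each of the 38 EGF-family probe sets grouped by gene (x axis). Filled points passed the threshold and colours give the brightness class. Single probe sets stand apart from their gene's others for EREG, NRG1 and EGFR, and for HBEGF the 2 bright probe sets part from the 2 of the middle class.

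Across the 38 probe sets 14 differed from the other probe sets of their gene, or 36.8%, against 14% of all 31839 probe sets so tested. The 14 are all 6 of NRG1, both of EREG, 3 of HBEGF, 2 of ERBB3 and 1 of EGFR, and those of 1 gene share arrays and are set against each other, so they are not independent. No probe set of TGFA, BTC, ERBB2 or ERBB4 was among them.

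Of 14 genes for the proteases that release the ligands and their partners 5 fell and 0 rose, beside 15.1% lower and 13% higher of all genes, with a median log2 fold change of -0.09. That no gene rose did not hold in every fit. There was 1 higher gene with a robust prior, without SDC1 siRNA replicate 2 or 3 or with the class from all 6 arrays, and there were 2 with the probe sets of every class averaged. ADAM17, the main sheddase of HBEGF, EREG and TGFA, was at -0.34, -0.28 and -0.34 after SDC1 siRNA, against 0.31, 0.38 and 0.44 after control siRNA. It fell by 0.69 (SE 0.061, adjusted p = 8.03e-05), and its 3 probe sets ran from -0.71 to -0.50. RHBDF2, a carrier that brings ADAM17 to the cell surface, fell by 0.35 (SE 0.069, adjusted p = 0.00572). FURIN, the convertase that trims ADAM precursors, fell by 0.48 (SE 0.079, adjusted p = 0.00215). ADAM19, a protease that can cut neuregulin, fell by 1.31 (SE 0.056), although its second probe set gave 0.03 (adjusted p = 0.892).

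Of 4 measured other ligands of the family 1 rose and 0 fell (median -0.04), beside 13% higher and 15.1% lower of all genes. NRG2, a relative of NRG1, rose by 0.32 (SE 0.072, adjusted p = 0.0103), while EGF was at -0.07 (adjusted p = 0.660), NRG3 at -0.15 (adjusted p = 0.239) and NRG4 at -0.00457 (adjusted p = 0.976). The NRG2 probe sets ran from 0.27 (adjusted p = 0.0504) to 0.35 (adjusted p = 0.0687) in the fit over probe sets.

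Heparan sulfate partners of the ligands had 3 of 11 lower and 0 higher (median -0.09), beside 15.1% lower and 13% higher of all genes. The 3 include SDC1, the target of the siRNA, which leaves 2 of 10. These were CD44, a hyaluronan receptor whose variant forms can carry heparan sulfate, at -0.68 (SE 0.081, adjusted p = 0.000394), with probe sets from -1.76 to 0.07, and SDC4, a second syndecan, at -0.59 (SE 0.089, adjusted p = 0.00136). GPC4, a glypican, did not pass at -0.24 (adjusted p = 0.0894).

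In the cascades below the receptors single genes moved in both directions, and the shares of all genes, 13% higher and 15.1% lower, apply beside each count. Among 13 measured adaptor and RAS-MAPK genes 1 rose and 2 fell (median 0.03). MAPK3, the kinase ERK1, was at 0.34, 0.47 and 0.37 after SDC1 siRNA, against -0.53, -0.38 and -0.34 after control siRNA. It rose by 0.81 (SE 0.073, adjusted p = 9.13e-05), while RPS6KA3, a kinase that ERK activates, fell by 0.34 (SE 0.057) and MAP2K1, a kinase upstream of ERK, by 0.25 (SE 0.056). ARAF, a RAF kinase, was at -0.20 (adjusted p = 0.0534). Of 11 genes of the PI3K-AKT, phospholipase C and STAT branch 2 rose and 2 fell (median 0.04), with 1 that rose when control replicate 1 or 3 or SDC1 siRNA replicate 1 or 2 was left out. PDPK1, the kinase that activates AKT, rose by 0.79 (SE 0.065), with its 6 probe sets from -0.02 to 0.79, and AKT1 by 0.25 (SE 0.067, adjusted p = 0.0229). AKT1's only probe set did not pass in the fit over probe sets (adjusted p = 0.050012). PLCG2, a phospholipase C, fell by 0.91 (SE 0.077), with probe sets from -0.91 to -0.09, and PIK3CB, a PI3K catalytic subunit, by 0.38 (SE 0.078).

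Negative regulators and genes of receptor traffic were split, 5 of 23 higher and 6 lower (median -0.11), beside 13% and 15.1% of all genes. SOCS4 and SOCS5, which promote loss of EGFR, rose by 1.31 (SE 0.077) and 0.64 (SE 0.067). SOCS4's 2 probe sets gave 0.46 and 1.31. PTPN2, a tyrosine phosphatase, fell by 1.16 (SE 0.057), with its 7 probe sets from -1.33 to 0.21, and SH3KBP1, an adaptor in receptor uptake, by 0.70 (SE 0.069). Transcripts that ERBB signalling induces were split too, 6 of 22 higher and 9 lower (median -0.07), beside 13% and 15.1% of all genes. Leaving out 1 array moved the higher count to 3 without control replicate 3 or SDC1 siRNA replicate 1 or 2, with 8 or 9 lower, and the number was 4 with 7 lower without control replicate 1. A fit blocked on the spike-in batch gave 4 higher and 8 lower. PTGS2, the inducible cyclooxygenase, was at -1.58, -1.67 and -0.84 after SDC1 siRNA, against 0.85, 0.94 and 0.99 after control siRNA. It fell by 2.29 (SE 0.19, adjusted p = 6.26e-05), less in SDC1 siRNA replicate 3 than in the other replicates, as for HBEGF. LIF, an interleukin-6 family cytokine, fell by 0.73 (SE 0.069). JUN, an AP-1 subunit, rose by 0.67 (SE 0.079), with probe sets from 0.14 to 0.67, and PHLDA1 by 0.67 (SE 0.073), with probe sets from 0.18 to 1.34.

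Over all 7 pathway lists 15 of 98 genes rose and 27 fell, with a median log2 fold change of -0.03, against 13% and 15.1% of all genes tested.

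**Figure D4:**
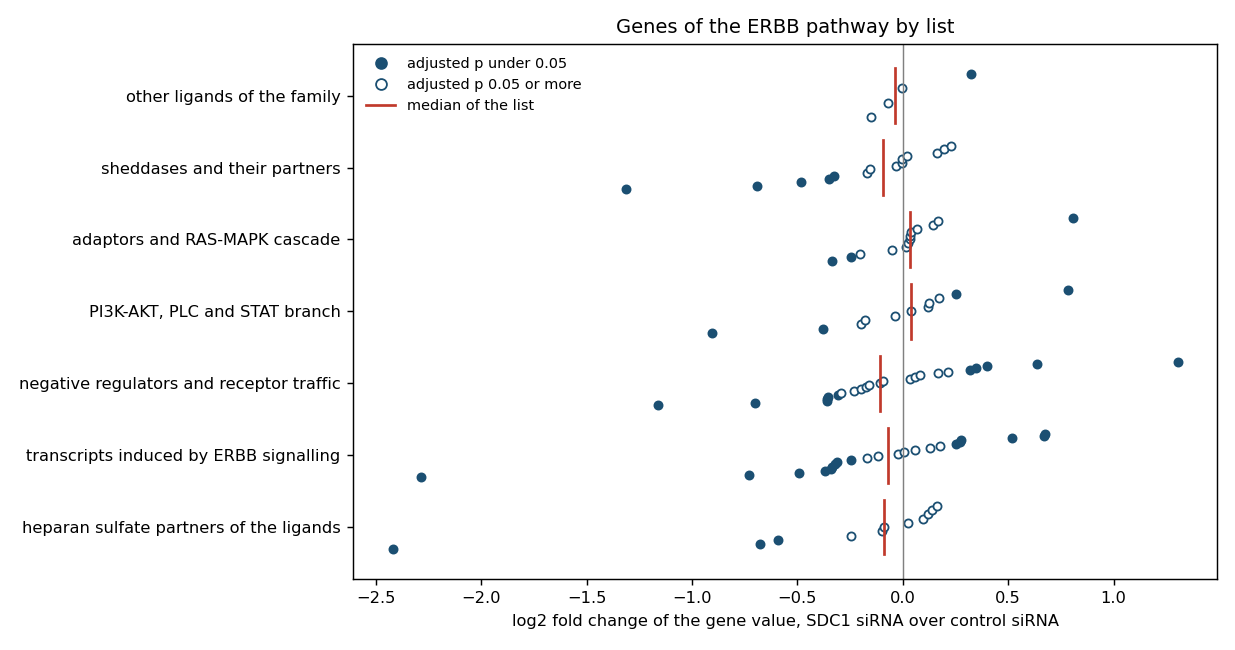
Log2 fold change of the gene value, SDC1 siRNA over control siRNA (x axis), for every measured gene of 7 ERBB pathway lists (rows), with filled points for genes past the threshold and a line at each list's median. In this fit the sheddase and heparan sulfate rows have filled points on the lower side only, and a higher sheddase gene passed in 5 of the 13 alternatives. ADAM19 at -1.31 and SDC1 at -2.42 lie lowest in them, and the regulator and induced transcript rows have filled points on both sides.

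Genes whose values over the 6 arrays lay closest to those of a member were found by the root mean square difference in log2 value. For EREG they were ATP6V1B2 and SYTL3 (differences 0.0306 and 0.0389), for HBEGF KYNU and QPCT (0.0417 and 0.0435) and for EGFR GPKOW and DCAF15 (0.0233 and 0.0237). For NRG1 they were TMEM181 and CDC42EP3 (0.0380 and 0.0382), for ERBB3 PLCL2 and KCTD18 (0.0452 and 0.0555) and for TGFA TBRG4 and RTKN (0.0257 and 0.0314). With 6 arrays in 2 groups this likeness mostly restates a fold change of equal size, and nothing on shared control follows from it.

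Marker genes were read the same way. Centred values cannot show whether a marker is present, and the brightness class did not settle the cell line label. The markers VIM, CD44, EGFR, KRT8 and KRT18 of this line were all in the brightest class, but so were CDH1, ERBB2 and ESR1 of the 4 genes known to be low in it, and the markers KDR, PECAM1, VWF and COL1A1 of other cells. VIM (-0.62), CD44 and EGFR fell after SDC1 siRNA. The second VIM probe set gave -0.27 (adjusted p = 0.0264). Of the 4 genes known to be low CDH1 fell by 0.55 (SE 0.11, adjusted p = 0.00683) and ESR1, PGR and ERBB2 did not pass. The second CDH1 probe set gave -0.17 (adjusted p = 0.361). Of markers of other cells, 1 of 8 for leukocytes (CD14, -0.46), 0 of 5 for endothelium and 1 of 6 for fibroblasts (COL1A1, -0.77) passed, all lower. Among all genes 28.1% passed, and 15.1% were lower. The COL1A1 probe sets ran from -1.23 to 0.18. The mean of the leukocyte list ran from -0.08 to -0.01 on SDC1 siRNA arrays and from -0.03 to 0.02 on control arrays. That of the endothelial list ran from -0.02 to 0.05 on SDC1 siRNA arrays and from -0.03 to 0.04 on control arrays, and that of the fibroblast list from -0.04 to 0.00468 on SDC1 siRNA arrays and from 0.00101 to 0.08 on control arrays. Their part in the results was not tested.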

How the data were processed

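Expression was measured on 6 Affymetrix arrays, 3 per group. The authors deposited log2 values for 54675 probe sets, made with RMA (robust multi-array average) per the submitters' processing notes. The sources used here give no other step. Each probe set's median over the arrays was within 1e-06 of 0, a centring read from the values. The base of 2 was taken from the numeric step that single precision leaves. That step also gave the brightness class, from the 3 arrays at or above the median. Of the brightest class, 28.2% were placed lower when all 6 arrays were read, and such probe sets may be dimmer than their class. No detection call was possible, and the number of arrays limits the precision.

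By the annotation 41097 probe sets had 1 gene, 1801 had several and 11777 had no name. Symbols were updated through RefSeq (GRCh38.p14), which matched 41043. No coordinates of probe sets are given, since the annotation names no build. Those of the promoter windows are RefSeq's. The 62 control probe sets were left out.

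Tests used limma 3.58.1 in R 4.3.3 (lmFit, eBayes, 2-sided, Benjamini-Hochberg), without covariates, over 54613 probe sets and over 19775 genes. Each gene took the mean of its brightest-class probe sets, leaving out cross-hybridising ones (_x_at) unless it had no other. Another fit took each probe set minus the mean of its gene's other probe sets on the same array. Each fit was checked on simulated data. The median SE of a gene's log2 fold change was 0.0745. Named genes were the members, SDC1, the 4 genes of lowest p in each pathway list and the 2 genes most alike to each changed member. Markers outside these were named once their values were known. The members and lists were chosen with earlier results of these data known. Alternatives were a robust prior, quantile normalisation, blocks, other gene summaries, filters and leaving out each array. Replicate numbers were not taken to pair the samples. Deviations of same-numbered arrays correlated at 0.014, 0.082 and 0.098 across genes, and those of differently numbered arrays at -0.118 to 0.04. With so few arrays these values cannot decide on pairing, and a replicate block is among the alternatives. Windows around gene starts came from RefSeq, for 8 of the 10 members. Some genes of the lists were not analysed here.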

Additional observations from a re-analysis of the deposited data

How the results depend on the processing

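The direction and the call of EREG, HBEGF, EGFR, NRG1, ERBB3 and TGFA as genes held under all 13 alternatives run for each. Their direction could not change when 1 array was left out, since their groups of arrays did not overlap. A robust prior, a replicate block and leaving out the dimmest class keep the fold change as it is, so these could change the call only. Without control replicate 1 the first spike-in batch has no control array. Without SDC1 siRNA replicate 3 the second has no SDC1 siRNA array. Those fits cannot part the siRNA from the batch there. Leaving out 1 array at a time gave 6 to 7 member genes past the threshold, 8 to 11 member probe sets, 10 to 13 probe sets that differ from others of their gene and 34 to 45 pathway genes. Under the other alternatives these counts ran from 6 to 7, 9 to 11, 12 to 13 and 40 to 48. With the replicate block they were 7, 9, 12 and 44. The block took the call of BTC probe set 241412_at (-0.33, adjusted p = 0.0501), gave one to ERBB2 (0.21, adjusted p = 0.0365) and changed no other call among the members' genes and the probe sets followed. The size was less stable than the direction, as averaging the probe sets of every class, without _x_at ones, brought EREG to -0.39, HBEGF to -0.45, EGFR to -0.26 and NRG1 to 0.41. ERBB4, which did not pass in any fit, changed sign to 0.05 without control replicate 2, to 0.10 without SDC1 siRNA replicate 3 and to 0.083 with the probe sets of every class averaged, and leaving out 1 array gave -0.13 to 0.10. NRG1 probe set 206237_s_at, near 0 throughout, ran from -0.072 to 0.00395, the last without SDC1 siRNA replicate 3. The cause was not tested. Dim probe sets limit what can be read, with 0 of 6 members past the threshold in the dimmest class.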
